A study of Rattus norvegicus with 12 samples.

Results

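The genes described here encode potassium, calcium and chloride channels of rat lung, with the ATP-gated, transient receptor potential and inositol trisphosphate (IP3) receptor channels. They were chosen by symbol: every gene whose symbol begins with Kcn, Cacn, Clcn, P2rx or Itpr, or with Trpc or Trpv and a number, and that had a probe set carrying that symbol alone. This gave 86 genes of the 4736 genes with 1 symbol on the array. They comprised 54 potassium channel genes, 14 calcium channel genes, 5 Clcn, 3 Trp, 7 P2rx and 3 Itpr genes. No Clic or Trpm gene met the rule on this array. Where a gene had several probe sets, the one with the highest mean over the 12 arrays stood for it.

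Lungs came from male Sprague-Dawley rats in 4 groups, all of which had vessel cannulation and a laparotomy. T/HS rats (trauma and hemorrhagic shock) were bled and held at an arterial pressure of 30 mmHg for 90 min, after which their shed blood was returned. T/HS-LDL rats had the same shock after the lymph vessel leaving the mesentery had been tied and cut (LDL, lymph duct ligation). T/SS-LDL rats had the ligation and a sham period with no bleeding, and T/SS rats (trauma with sham shock) the sham period with an open duct. Per the series text, lung injury was present in T/HS rats alone. Lungs were collected 3 h after shock or sham ended, which was 4.5 h after it began, and 3 Affymetrix rat arrays were deposited for each group. Neither the age of the animals nor the laboratory day of an array was given in the labels.

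Ion channels set the membrane potential of a cell and let calcium or chloride move along their gradients. Potassium channels hold smooth muscle of the pulmonary arteries relaxed, and voltage-gated calcium channels admit the calcium that makes it contract. IP3 receptors release calcium from the endoplasmic reticulum, ATP-gated P2X receptors open when cells spill ATP, and chloride channels serve epithelial fluid transport and the acidification of organelles.

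Every group held 2 arrays that hardly differed. The robust SD of the log2 differences within these pairs was 0.00993 to 0.0548, against 0.164 to 0.232 for the other pairs within groups. The pairs were replicates 1 and 3 of T/HS, T/HS-LDL and T/SS-LDL, and T/SS replicates 2 and 3. Each such pair differed by far less than other replicates and was counted as 1 sample, which left 2 samples per group and 8 in all. The labels call every array a biological replicate, and results with the 12 arrays kept apart are given where they differ. The p-values measure the spread between these samples. T/HS replicate 2 had the most probe sets over 2-fold apart from other arrays, though its counts overlapped those of other pairs. It differed over 2-fold at 187 to 315 probe sets from the other arrays, and at 248 and 256 from those of its own group, where the remaining pairs that were not near-identical had 37 to 229. Values without it are given beside the results that use T/HS lungs. The median intensity of an array was 651 to 680.2 units, and the number of arrays limits the precision. Lung markers were mostly bright: 5 of 5 measured alveolar type II genes and 6 of 6 endothelial genes lay above the array median on all 12 arrays. So did 4 of 5 alveolar type I genes and 3 of 6 airway club and ciliated cell genes. Among other lists, 7 of 8 smooth muscle, 6 of 14 heart muscle and 3 of 9 nerve genes lay above it on all arrays. In whole lung, fewer cells of a type and less RNA per cell cannot be told apart.

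Channel probe sets reached the array median less often than other genes. Of the 86 genes, 32 (37.2%) lay above the median of their array on all 12 arrays, 3 on some arrays and 51 on none. Over all 4736 genes the share was 52.2%. The array median is a yardstick and not a detection limit, since the deposited values carry no detection call. Probe sets also differ in how strongly they bind, so the order of 2 genes by intensity is not their order of abundance. The last gene inside the limit was P2rx6 at a mean of 744 units, and the nearest outside it on every array was Kcnf1 at 574.

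**Figure D1:**
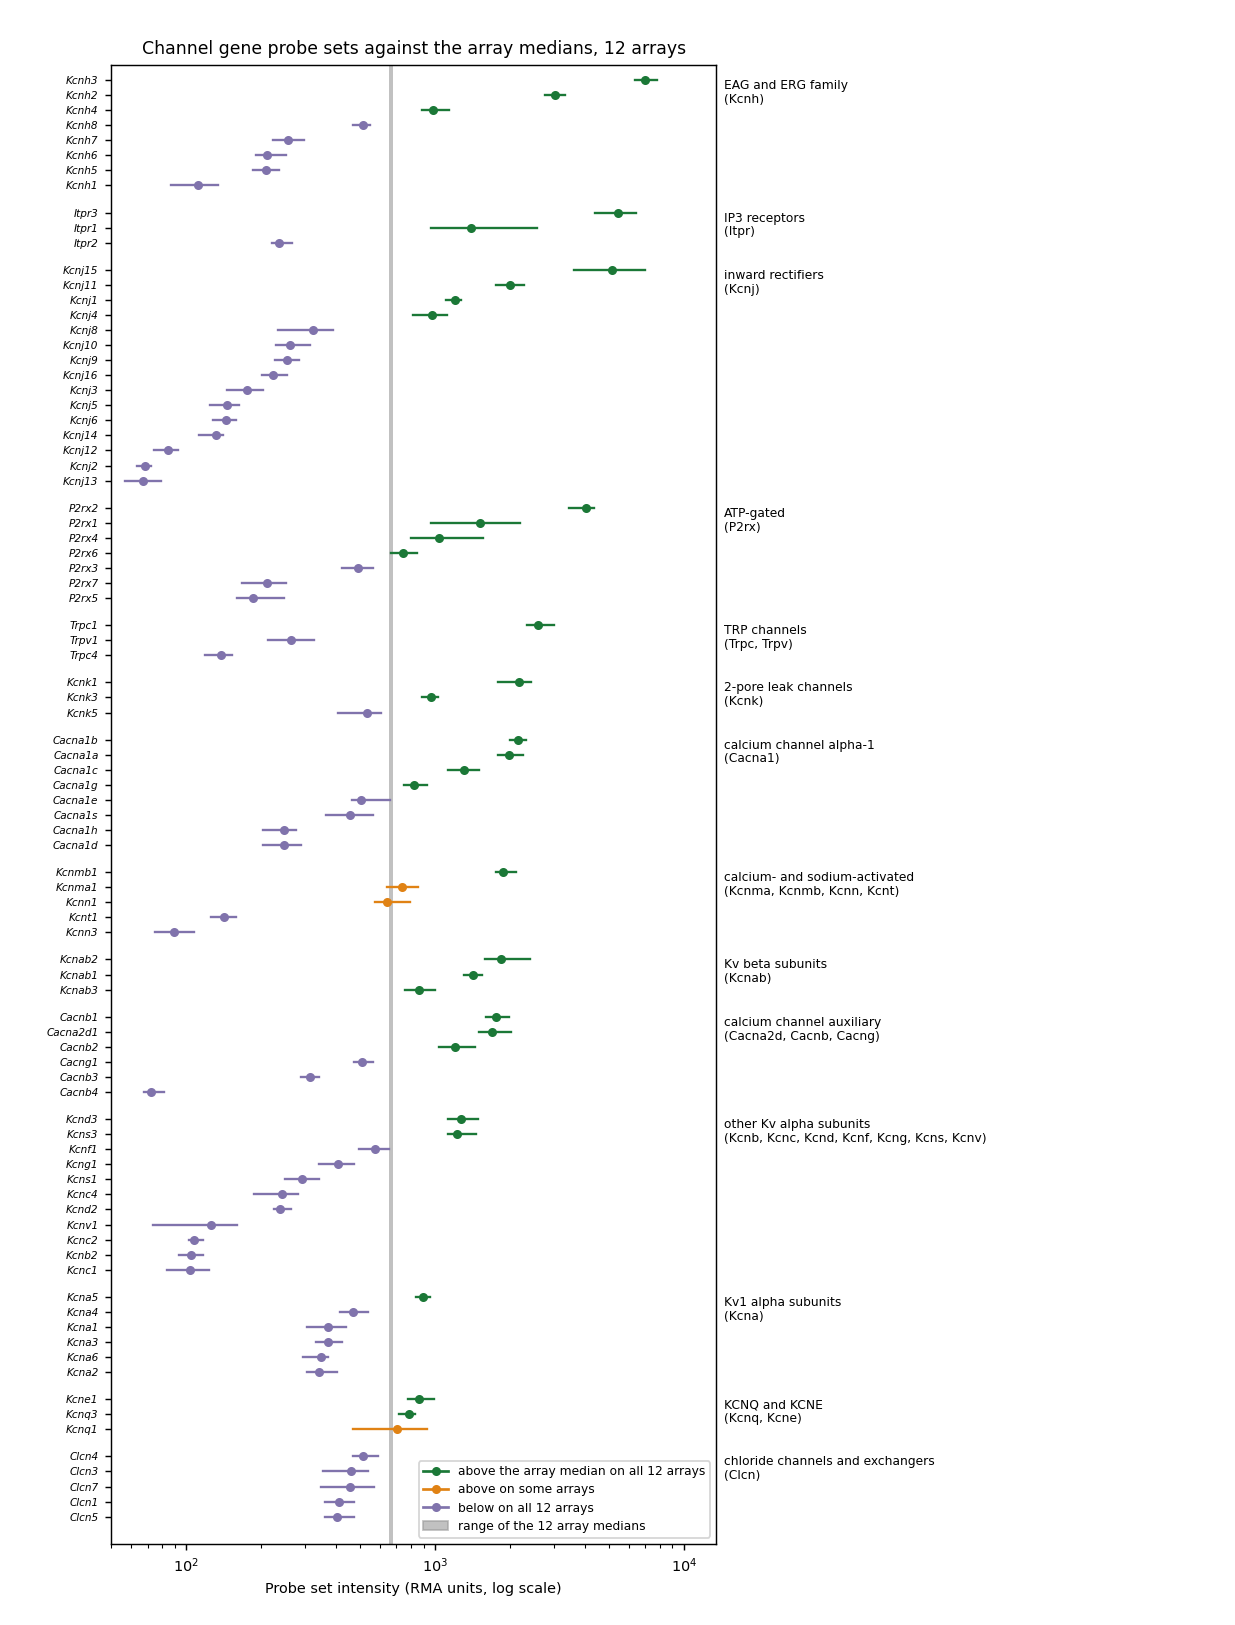
Mean intensity (point) and the lowest to highest of 12 arrays (line) for 86 channel genes, grouped by family, on a log axis in RMA units. The grey band is the range of the 12 array medians, 651 to 680.2 units. The 32 genes in green lie to its right on every array, from Kcnh3 at 7010.0 units to P2rx6 at 744, and all 5 Clcn genes lie to its left.

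Among voltage-gated potassium channels, the brightest probe set was that of Kcnh3, which encodes a channel of the EAG family known mainly from forebrain. It averaged 7010.0 units with a range over the 12 arrays of 6341 to 7801. Kcnh2, the ERG channel that repolarizes heart muscle, averaged 3037 units (2774 to 3338). Kcnh4, a relative of Kcnh3, averaged 986 units (887 to 1134). The other 5 Kcnh genes were below the array median on every array, with means from 112 (Kcnh1) to 515 units (Kcnh8), so the family held the brightest channel probe set as well as dim ones.

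Of 6 Kv1 alpha subunits, Kcna5 alone was above the median on all arrays. Kcna5 carries an oxygen-sensitive current of pulmonary artery smooth muscle and averaged 898 units (839.9 to 952). All 3 Kv beta subunits, which bind Kv1 channels from the cytoplasm, were above it. Kcnab2 averaged 1842 units, Kcnab1 1418 and Kcnab3 866. Kcnd3, a pore subunit of the transient A-type current, averaged 1275 units (1129 to 1483). Kcns3, a silent subunit that forms no channel by itself, averaged 1221 units (1130.4 to 1461). The other 9 Kv alpha genes of these families were below the median, with means from 104 to 574 units.

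Kcnq3, a subunit of the muscarine-sensitive current, averaged 786 units (715 to 834), and Kcne1, a small partner subunit of Kcnq1, 861 units (779 to 992). Kcnq1, whose channel also works in airway epithelium, averaged 701 units and was above the median on 8 arrays. Kcnmb1 encodes the beta subunit that raises the apparent calcium sensitivity of smooth muscle BK channels, and averaged 1871 units (1757 to 2107). The BK pore gene Kcnma1 averaged 739.7 units and was above the median on 10 arrays. Kcnn1, a small-conductance calcium-activated channel, was above it on 3 arrays.

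Inward rectifiers were mostly dim, with 4 of 15 above the median on all arrays. Kcnj15 (Kir4.2) averaged 5131 units (3632 to 6953). Kcnj11 (Kir6.2), the pore of ATP-sensitive potassium channels, averaged 2006 units (1752 to 2280.2). Kcnj1 (ROMK), best known from kidney tubules, averaged 1199.6 units (1112 to 1266), and Kcnj4 (Kir2.3) 969 units (814 to 1119). The remaining 11, among them the vascular ATP-sensitive pore gene Kcnj8 at 323 units, had means down to 66.9 units. The background-current channels Kcnk1 (TWIK-1) and Kcnk3 (TASK-1, which sets the resting potential of pulmonary artery muscle) averaged 2175 and 962 units, and Kcnk5 (TASK-2) was below the median at 531.

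Of 8 calcium channel pore genes, 4 were above the median on all arrays. Cacna1b and Cacna1a, which encode the N-type and P/Q-type channels of nerve endings, averaged 2155 units (1999 to 2313) and 1986 units (1789 to 2266). Cacna1c, the L-type channel of heart and smooth muscle, averaged 1302 units (1131 to 1499.7), and the T-type gene Cacna1g 821 units (751 to 932). Of 6 auxiliary subunits, Cacnb1, Cacna2d1 and Cacnb2 were above it, with means of 1760.1, 1695 and 1205 units. These subunits carry pore subunits to the membrane and set their gating. Of 9 nerve markers measured beside them, 3 were above the median on all arrays. Among the other markers of that list, the synaptic genes Snap25 and Syt1 averaged 391 and 111 units and lay below the median on every array. They are examples from the dim side of the list and do not stand for the 3 bright markers. The part of nerve in the Cacna1b and Cacna1a values was not tested.

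Among IP3 receptors, Itpr3 averaged 5437 units (4383 to 6431) and Itpr1 1393 units (963 to 2561), while Itpr2 was below the median at 237. Of the Trp genes measured, Trpc1, a subunit of receptor-operated and store-operated cation channels, averaged 2605 units (2348 to 3021). Trpv1, the capsaicin receptor of sensory nerves, and Trpc4 were below the median at 264 and 138 units. All 5 Clcn genes, of which Clcn3, Clcn4, Clcn5 and Clcn7 encode exchangers of endosomes and lysosomes and Clcn1 the chloride channel of skeletal muscle, were below the median, at 404 to 516 units.

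ATP-gated channels had 4 of 7 genes above the median. P2rx2 averaged 4039.8 units (3469 to 4361). P2rx1, the receptor of platelets and arterial smooth muscle, averaged 1517 units (965 to 2196). P2rx4, found on macrophages, endothelium and the lamellar bodies of type II cells, averaged 1039.7 units (798 to 1555). P2rx6 completed the 4, while P2rx3, P2rx7 and P2rx5 had means of 493, 211 and 186 units. P2rx7, which drives interleukin-1 release from macrophages, was thus below the median on every array.

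Several of these levels rest on 1 probe set among discordant ones. Of 33 genes with more than 1 probe set, 16 differed over 4-fold between the brightest and the dimmest, with a median of 3.56-fold. Of the 19 above-median genes with several, 5 had every probe set above the median on all arrays and 12 had only 1. The 5 with every probe set above were Kcnh3, Itpr3, Kcnh2, Kcnj11 and Kcnj4. P2rx2 had 6 probe sets with means of 4039.8, 1852, 545, 209.5, 186 and 119.9 units. Those at 4039.8 and 209.5 units were designed from the same sequence entry, as were the pair for Trpc1 at 2605 and 212 units. The statement that lung expresses P2rx2 or Trpc1 above the array median therefore depends on which probe set is read. For Itpr3, by contrast, both probe sets were bright, at 5437 and 2772 units.

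**Figure D2:**
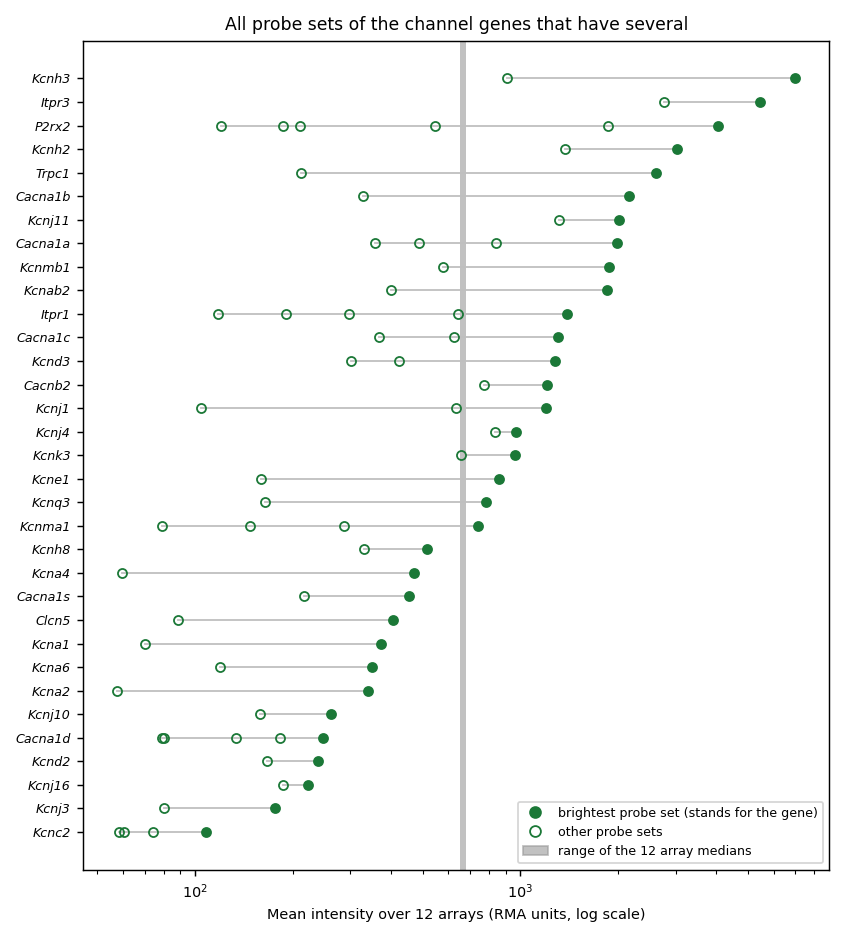
Mean intensity over 12 arrays (log axis, RMA units) of every probe set of the 33 channel genes that have several. Filled points are the probe sets that stand for their gene and open points the others. Itpr3 has both to the right of the grey band of array medians, whereas P2rx2 spans 119.9 to 4039.8 units.

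Across the 8 samples, channel genes varied little. The range from the lowest to the highest sample had a median of 0.37 on the log2 scale for the 86 genes and 0.43 for all genes. A range above 1 was seen for 3 channel genes (3.49%), against 9.63% of all genes. These were Itpr1 (range 1.40), P2rx1 (1.17) and Kcnv1 (1.05), a silent potassium channel subunit named here after its values were seen. Kcna5 was among the steadiest, with a range of 0.15. The median robust SD of a sample to the others was between 0.188 and 0.228, a measure that leaves out the tails in which T/HS replicate 2 differed. It was highest for T/HS replicates 1 and 3, and 0.211 for T/HS replicate 2.

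**Figure D3:**
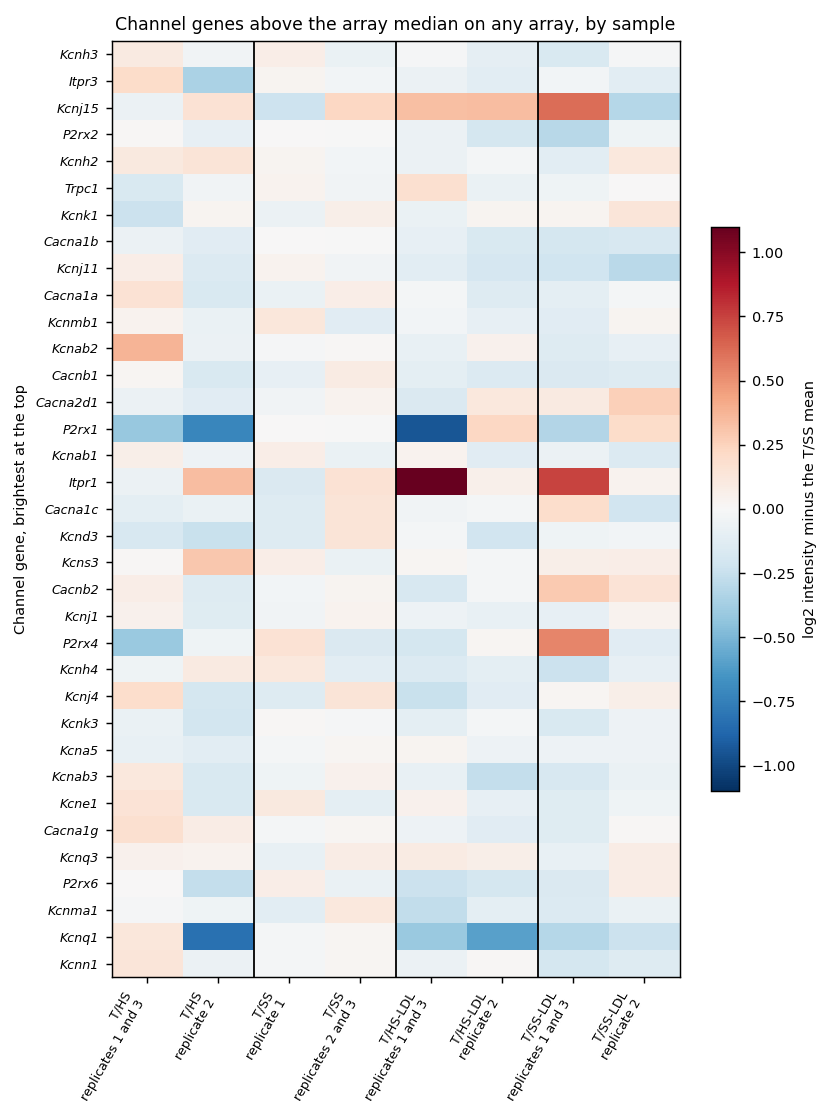
Log2 intensity minus the T/SS mean (colour) for the 35 channel genes above the array median on at least 1 array, in the 8 samples. Most cells are pale. The strongest colours are single samples, such as Itpr1 in T/HS-LDL replicates 1 and 3 and P2rx1 in the same sample.

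No channel gene passed a test between groups on the 8 samples. In each of the 7 comparisons, limma's test with Benjamini-Hochberg adjustment over 8740 probe sets called 0 of 86 channel genes at an adjusted p of 0.05. The background was the same, with 0.0% of all probe sets called. The median half-width of the 95% interval of a channel gene was 0.30 on the log2 scale for 2 groups, 0.21 for a mean effect over 4 groups and 0.43 for the interaction.

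**Figure D4:**
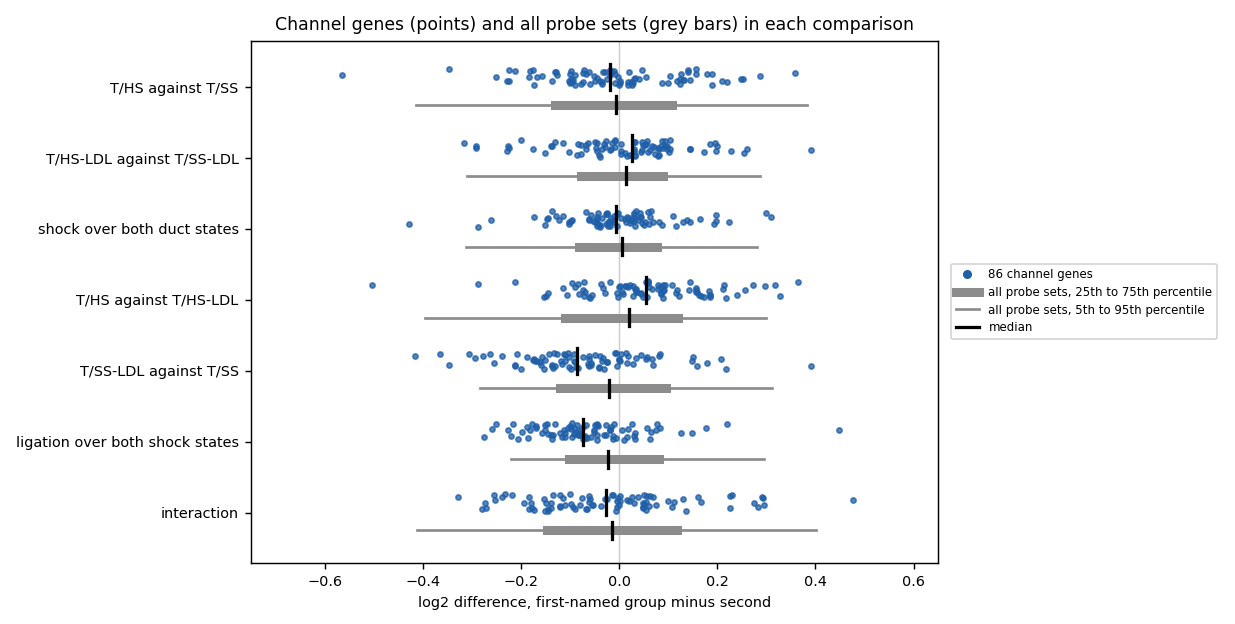
Log2 difference (x axis) of the 86 channel genes (points) in each comparison, over the 25th to 75th (thick grey) and 5th to 95th percentile (thin grey) of all 8740 probe sets. Black ticks are medians. In the ligation comparison the channel genes' median is -0.07 and that of all probe sets -0.02. In T/SS-LDL against T/SS these medians are -0.09 and -0.02. In every comparison the points lie mostly within the grey range.

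The comparison of T/HS with T/SS lungs addresses shock together with lung injury. Channel genes had a median log2 difference of -0.02, against -0.01 for all probe sets, with 36 higher and 50 lower. At an unadjusted p of 0.05, 2 of 86 channel genes passed, where the background was 8.8% of all probe sets. Kcnj6 (Kir3.2, a G-protein-gated rectifier) had 135 and 132 units in T/HS lungs and 155 and 158 units in T/SS lungs, a log2 difference of -0.23 ± 0.09 (SE, n = 2 samples a group; limma adjusted p = 0.535). Kcnh1 (EAG1) had 129.7 and 123 units in T/HS lungs and 87.0 and 111 units in T/SS lungs, a difference of 0.36 ± 0.14 (limma adjusted p = 0.554). The groups did not overlap for either gene, and both probe sets were dim, below the array median on every array. Without T/HS replicate 2 the differences were -0.21 and 0.40, and the median over the channel genes was 0.06. The count at an unadjusted p of 0.05 was then 1, as it was without either T/HS-LDL sample, and 6 without T/HS replicates 1 and 3. Kcnh5, Kcnh6, Kcnh7 and Kcna1 came next in order of p, with log2 differences of 0.22, 0.25, -0.18 and 0.29 and limma adjusted p of 0.575 to 0.654. With the 12 arrays kept apart, limma called Kcnh5 and Kcnj6 (adjusted p = 0.0367 and 0.038), where 7.2% of all probe sets were called. With the replicate number as a block as well, Kcnj6 was called (background 5.22%). Those fits count near-identical arrays as separate animals.

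Among the brighter genes, P2rx1 had the largest difference in either direction. It had 1403 and 1141 units in T/HS lungs and 1879 and 1865 units in T/SS lungs, a log2 difference of -0.57 ± 0.37 (95% interval -1.43 to 0.30; limma adjusted p = 0.697), which was -0.42 without T/HS replicate 2. With the duct tied it had 977 and 2196 units in T/HS-LDL lungs and 1494 and 2156 units in T/SS-LDL lungs, so that both groups overlapped and the T/HS-LDL samples differed over 2-fold from each other. Smooth muscle markers and a list that mixes erythroid with platelet genes were read beside it. The summed intensity of 5 erythroid and platelet genes was 46575 to 49258 in T/HS lungs and 50302 to 53381 in T/SS lungs, and that of 8 smooth muscle genes 35575 to 43090.2 in T/HS lungs and 42511 to 53936 in T/SS lungs. In the ligated groups the smooth muscle sum was 35587 to 41327 in T/HS-LDL lungs and 50726 to 56476 in T/SS-LDL lungs. The erythroid and platelet sums overlapped there, at 45886 to 53024 in T/HS-LDL lungs and 47472 to 56349 in T/SS-LDL lungs. The part of these markers in the P2rx1 values was not tested.

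Potassium channel genes of pulmonary vascular tone had small differences. Kcna5 had 869 and 848 units in T/HS lungs and 904 and 935 units in T/SS lungs (log2 difference -0.10 ± 0.09, limma adjusted p = 0.785). Kcnk3 had 970.3 and 883 units in T/HS lungs and 1027 and 1009 units in T/SS lungs (log2 difference -0.14 ± 0.10, limma adjusted p = 0.732). For both genes the T/HS samples lay below both T/SS samples, and the 95% interval of each difference included 0. Without T/HS replicate 2 the differences were -0.08 and -0.07, and a second, dimmer Kcnk3 probe set had a difference of 0.16 with all samples. Groups that did not overlap were common over the array: 12 channel genes were higher in T/HS lungs without overlap (background 19.2%) and 17 lower (background 20.9%).

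The Kcnq1 difference between T/HS and T/SS lungs rested on 1 sample. It had 900.2 and 467 units in T/HS lungs and 812 and 839 units in T/SS lungs, where the low value was T/HS replicate 2. The log2 difference was -0.35 ± 0.27 (limma adjusted p = 0.749) with all samples, -0.82 without T/HS replicates 1 and 3, and 0.13 without T/HS replicate 2. With the duct tied, Kcnq1 was lower in T/HS-LDL than in T/SS-LDL lungs without overlap (log2 difference -0.23; background 12.4%). In T/SS-LDL lungs it also lay below T/SS lungs without overlap (background 24.5%). Its shock difference over both duct states was -0.29, and -0.52 to -0.05 over the samples left out. Kcnq1 was named after its values were seen. The same T/HS replicate 2 had a summed intensity of 71788 over 9 neutrophil genes, against 36698 in T/HS replicates 1 and 3. The part of neutrophils in the Kcnq1 value was not tested.

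In lungs with the duct tied, T/HS-LDL against T/SS-LDL compares shock with sham where neither group had lung injury. The channel genes' median log2 difference was 0.03, against 0.01 for all probe sets. It turned to -0.05 without T/SS-LDL replicates 1 and 3 and to -0.02 without T/HS-LDL replicates 1 and 3. At an unadjusted p of 0.05, 1 channel gene passed (background 3.79%). The count was 7 without T/HS-LDL replicate 2, 3 without T/SS-LDL replicate 2, and 0 without T/HS-LDL replicates 1 and 3 or without either T/SS sample. With all samples it was Cacnb2, a beta subunit of L-type calcium channels, with 1042 and 1162 units in T/HS-LDL lungs and 1438 and 1306 units in T/SS-LDL lungs. The difference was -0.32 ± 0.12 (limma adjusted p = 0.998), and its second probe set, at 775 units, had a difference of -0.27. With the duct open the T/HS and T/SS values of Cacnb2 overlapped (1239.5 and 1070.4 units in T/HS lungs and 1151 and 1206 in T/SS lungs).

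Muscle markers were also lower in T/HS-LDL lungs. The summed intensity of 14 heart muscle genes, which in rat lung mark the sleeves of the pulmonary veins, was 10163 to 24442 in T/HS-LDL lungs and 27284 to 31396 in T/SS-LDL lungs, with a median log2 difference of -0.47. For 8 smooth muscle genes the median difference was -0.42. None of these markers was at 0, and their part in the Cacnb2 difference was not tested. With the 12 arrays apart, limma called Cacnb2 (adjusted p = 0.0445; background 1.45%), and with the replicate block it called none (background 0.538%). Kcnh1, Kcnh5, Cacna2d1, Kcnk5 and Kcnh6 followed in order of p, with log2 differences of 0.26, 0.17, -0.20, 0.23 and 0.20 and a limma adjusted p of 0.998 each. Groups did not overlap for 14 channel genes higher (background 16.8%) and 8 lower in T/HS-LDL lungs (background 12.4%).

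**Figure D5:**
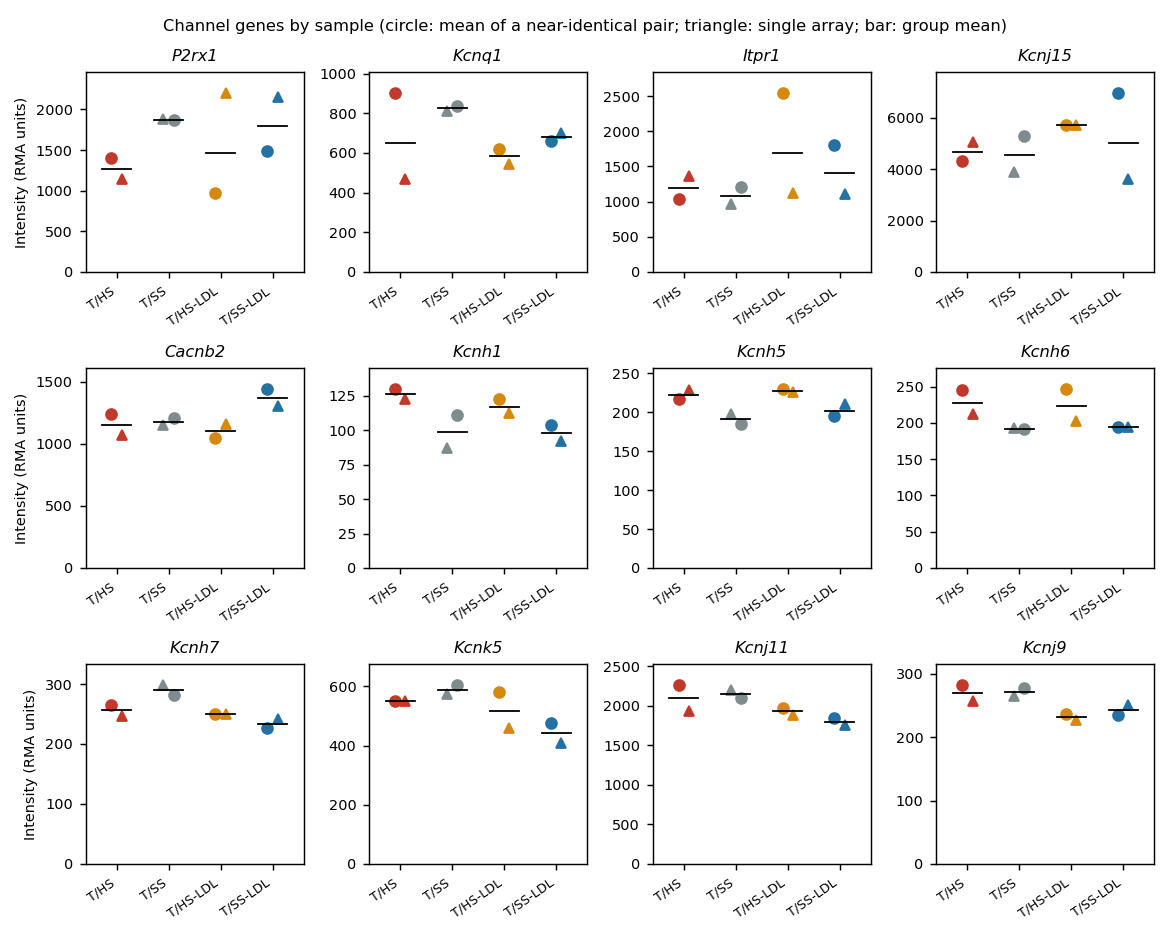
Intensity in RMA units (y axis from 0) of 12 channel genes in the 8 samples. Circles are means of near-identical pairs, triangles single arrays, and bars group means taken on the log2 scale. Kcnh1, Kcnh5 and Kcnh6, named for their small shock p in these samples, have both shock samples above both sham samples in each duct state. P2rx1, Itpr1 and Kcnj15 scatter within groups.

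Averaged over open and ligated ducts, 3 channel genes passed an unadjusted p of 0.05 for shock, where the background was 9.04% in either direction and 3.5% higher. All 3 were dim members of the EAG and ERG family and all were higher after shock, and 3 of 86 is close to that 3.5%. The count was 3 without T/HS replicate 2, 1 without T/HS-LDL replicates 1 and 3, and 5 without T/HS replicates 1 and 3, without T/HS-LDL replicate 2 or without T/SS-LDL replicate 2. Kcnh1 had 122 and 112 units in T/HS-LDL lungs and 104 and 92.3 units in T/SS-LDL lungs, beside the open-duct values above, for a mean shock difference of 0.31 ± 0.10 (limma adjusted p = 0.444). Kcnh5 (EAG2) had 217 and 229 units in T/HS lungs and 197 and 185 units in T/SS lungs, and 229.6 and 226 units in T/HS-LDL lungs and 195 and 210.2 units in T/SS-LDL lungs. Its difference was 0.20 ± 0.07 (limma adjusted p = 0.466). Kcnh6 (ERG2) had 245 and 212 units in T/HS lungs and 193 and 192 units in T/SS lungs, and 246 and 202 units in T/HS-LDL lungs and 195 and 194 units in T/SS-LDL lungs, a difference of 0.22 ± 0.09 (limma adjusted p = 0.536). Without T/HS replicate 2 the Kcnh1, Kcnh5 and Kcnh6 differences were 0.33, 0.18 and 0.28.

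For these 3 genes and Cacnb4, both shock samples lay above both sham samples within each duct state. That is 4 of 86 channel genes, a share close to the 4.63% of all probe sets. The 3 Kcnh genes were named for their small p in this comparison, so their separation adds no further support. None of the 86 genes was lower in both without overlap (background 4.32%). The bright members of the family had smaller differences. Kcnh3 had 7670.5 and 6970.1 units in T/HS lungs and 7544 and 6814 units in T/SS lungs, and 7096 and 6693 units in T/HS-LDL lungs and 6393 and 7117 units in T/SS-LDL lungs, and its shock difference was 0.03 ± 0.08 (limma adjusted p = 0.952). Kcnh2 had a shock difference of 0.04 ± 0.08 (limma adjusted p = 0.932), and its second probe set, at 1367 units, one of -0.14, so that its direction was not settled. Over the 8 Kcnh genes, 6 had a difference above 0 and 2 below, with a median of 0.04 on the log2 scale.

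The neutrophil list moved with shock in the same samples. Its summed intensity over 9 genes was 36698 to 71788 in T/HS lungs and 21398 to 26933 in T/SS lungs, and 62495 to 71843 in T/HS-LDL lungs and 33519.5 to 44223 in T/SS-LDL lungs. The median log2 shock difference of the list was 0.75, and none of its genes was at 0. Its part in the Kcnh values was not tested. With 12 arrays kept apart, limma called Kcnh1, Kcnh5 and Kcnh6 (adjusted p = 0.0371, 0.0111 and 0.0243), where 8.39% of all probe sets were called. With the replicate number as a block as well, Kcnh5 and Kcnh6 were called (background 6.52%). With the sample as a random block over the 12 arrays, 0 channel genes were called (background 0.664%).

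The ATP-gated genes had a median shock difference of -0.12, with 4 of 7 below 0. P2rx1 differed by -0.43 ± 0.26 (limma adjusted p = 0.712). P2rx4 had 803 and 1030.0 units in T/HS lungs and 1187 and 958 units in T/SS lungs, and 932 and 1083 units in T/HS-LDL lungs and 1548 and 979 units in T/SS-LDL lungs, a difference of -0.26 ± 0.17 (limma adjusted p = 0.746). Its groups overlapped in both duct states. Without T/HS replicate 2 the P2rx1 and P2rx4 differences were -0.35 and -0.35. Kcnj6, Cacnb2 and Clcn7 completed the 6 smallest p for shock, with differences of -0.13, -0.17 and 0.19 and limma adjusted p of 0.619 to 0.69.

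T/HS against T/HS-LDL compares shocked lungs with and without lung injury, and shares its T/HS samples with the first comparison. Channel genes had a median log2 difference of 0.06, against 0.02 for all probe sets, with 60 higher and 26 lower in T/HS lungs. The median was 0.11 without T/HS replicate 2 and -0.02 without T/HS replicates 1 and 3. At an unadjusted p of 0.05, 2 passed (background 6.37%). The count was 6 without T/HS replicate 2, and 1 without T/HS-LDL replicates 1 and 3 or without either T/SS-LDL sample. P2rx5 had 231 and 201 units in T/HS lungs and 173 and 162 units in T/HS-LDL lungs, a difference of 0.36 ± 0.14 (limma adjusted p = 0.775). Kcnc1 (Kv3.1, of fast-firing neurons) had 120.5 and 115 units in T/HS lungs and 83.8 and 105 units in T/HS-LDL lungs, a difference of 0.33 ± 0.14 (limma adjusted p = 0.775). Both probe sets were dim, and without T/HS replicate 2 the differences were 0.47 and 0.36. The next by p were Cacna1g, Kcnj9, Kcnc4 and Clcn3, with differences of 0.22, 0.21, 0.30 and 0.32 and limma adjusted p of 0.775 to 0.78.

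Of these, Cacna1g was above the array median, with 930.5 and 869 units in T/HS lungs and 791 and 756 in T/HS-LDL lungs. The heart muscle sum was 25054 to 29507 in T/HS lungs and 10163 to 24442 in T/HS-LDL lungs, and its part in the Cacna1g values was not tested. Groups did not overlap for 20 channel genes higher in T/HS lungs (background 18.4%) and 6 lower (background 15.7%). With 12 arrays apart, Kcnc1 was called by limma (adjusted p = 0.0429; background 4.26%), and with the replicate number as a block no channel gene was (background 1.49%).

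Ligation without shock, T/SS-LDL against T/SS, gave channel genes a median log2 difference of -0.09, against -0.02 for all probe sets. Of the 86, 64 were lower and 22 higher in T/SS-LDL lungs. At an unadjusted p of 0.05, 2 passed (background 4.23%). The count was 5 without T/SS-LDL replicate 2, 4 without either T/HS sample (T/HS lungs bear on this comparison only through the shared spread), and 1 without T/SS replicate 1. Kcnh7 (ERG3) had 226 and 242 units in T/SS-LDL lungs and 298 and 282 units in T/SS lungs, a difference of -0.31 ± 0.10 (limma adjusted p = 0.896). Kcnk5, an alkaline-activated leak channel of epithelia, had 478 and 408 units in T/SS-LDL lungs and 575 and 604 units in T/SS lungs, a difference of -0.42 ± 0.14 (limma adjusted p = 0.896). In both genes the groups did not overlap.

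Kcnj11, P2rx7, Cacna1b and Kcnj10 came next, with differences of -0.25, -0.35, -0.19 and -0.29 and a limma adjusted p of 0.896 each. P2rx7 had 184 and 204 units in T/SS-LDL lungs and 242 and 250.4 units in T/SS lungs. For Cacna1b the second probe set, at 328 units, had the opposite sign (0.16). In all, 30 channel genes were lower in T/SS-LDL lungs without overlap (background 24.5%) and 3 were higher (background 16.2%). With 12 arrays apart, limma called Kcnh7 (adjusted p = 0.0363; background 1.61%), and none with the replicate block (background 0.24%).

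Over both shock states, ligated lungs had lower values than open-duct lungs for 67 of 86 channel genes, with a median log2 difference of -0.07. That was 77.9% of the channel genes, against 56.9% of all probe sets. The median of all probe sets was -0.02, and dim probe sets were lower in general: those below the array median had a median of -0.05 and those above it 0.01. The channel genes' medians in the same 2 classes were -0.08 and -0.05. The SD of a sample's median over the channel genes within groups was 0.057, so the shift was of the order of the difference between samples of 1 group. At an unadjusted p of 0.05, 5 channel genes passed (background 8.08% in either direction and 3.47% lower), all lower in ligated lungs. That count rested on single samples. It rose when some samples were left out and fell when others were, and each such fit had 1 sample in a group. The median was -0.10 without T/HS replicate 2 and -0.04 without T/HS replicates 1 and 3.

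Markers of blood cells and muscle were read beside the ligation differences, and none passed limma's adjusted p of 0.05. Of 9 neutrophil genes, 7 were higher in ligated lungs, with a median log2 difference of 0.50. Of 12 T and NK cell genes, 10 were lower (median -0.17), and their summed intensity was 7537 to 9137 in T/HS-LDL lungs and 7856 to 8385 in T/SS-LDL lungs, and 9234 to 15647 in T/HS lungs and 8472 to 8799.6 in T/SS lungs. All 14 heart muscle genes were lower on average over both shock states, with a median of -0.07, but the 2 states differed. Without shock, 10 were higher and 4 lower after ligation (median 0.33). Their sums were 27284 to 31396 in T/SS-LDL lungs and 14010 to 26641 in T/SS lungs. In shocked lungs all 14 were lower with the duct tied, where open minus ligated gave a median of 0.56. The part of these blood cell and muscle markers in the channel genes' ligation differences was not tested.

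Kcnj9 (Kir3.3) had 236 and 228 units in T/HS-LDL lungs and 235 and 251 units in T/SS-LDL lungs, and 282 and 257 units in T/HS lungs and 265 and 278 units in T/SS lungs. Its difference was -0.19 ± 0.07 (limma adjusted p = 0.603), and it was lower without overlap in both shock states. Kcnj11 had 1977 and 1889.6 units in T/HS-LDL lungs and 1849 and 1752 units in T/SS-LDL lungs, and 2260.3 and 1941 units in T/HS lungs and 2200.1 and 2096 units in T/SS lungs, a difference of -0.19 ± 0.08 (limma adjusted p = 0.603). Its second probe set, at 1316 units, differed by -0.08. Kcnk5, Kcnh7 and Clcn7, a lysosomal exchanger, had differences of -0.25 ± 0.10, -0.17 ± 0.07 and -0.26 ± 0.11 (limma adjusted p = 0.603 each). P2rx5 was the sixth by p, at -0.23 ± 0.10 (limma adjusted p = 0.603). Without T/HS replicate 2 the Kcnj9 and Kcnj11 differences were -0.22 and -0.24.

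Cacnb4, Kcnj9 and Kcns1 were lower in ligated lungs without overlap in both shock states (background 5.23%), and no channel gene was higher in both (background 4.53%). With the 12 arrays kept apart, 6 channel genes were called lower, Cacna1g, Cacnb4, Clcn7, Kcnh7, Kcnj11 and Kcnj9 (limma adjusted p = 0.0209 to 0.0475; background 11.1%). With the replicate number as a block as well, the calls were Kcnh7, Kcnj11 and Kcnj9 (background 5.93%).

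The largest values after ligation were of single samples. Itpr1 had 2539 and 1119.8 units in T/HS-LDL lungs and 1803 and 1109 units in T/SS-LDL lungs, and 1032 and 1368 units in T/HS lungs and 963 and 1207 units in T/SS lungs, where T/HS-LDL and T/SS-LDL replicates 1 and 3 were high and the other ligated samples were not. Its difference was 0.45 ± 0.29 (limma adjusted p = 0.651). The 4 other Itpr1 probe sets had differences of -0.05, -0.21, -0.14 and -0.12, so the higher ligated mean was read by the brightest probe set alone. Kcnj15 had 5693 and 5729.8 units in T/HS-LDL lungs and 6940.4 and 3632 units in T/SS-LDL lungs, and 4319 and 5064 units in T/HS lungs and 3869 and 5297 units in T/SS lungs, a difference of 0.22 ± 0.21 (limma adjusted p = 0.729) that turned to -0.015 without T/SS-LDL replicates 1 and 3.

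The interaction asks whether the shock difference depended on the duct, as the open-duct shock difference minus the ligated one. At an unadjusted p of 0.05 it called 0 channel genes (background 2.99%), and 4 without T/HS-LDL replicate 2, 2 without T/HS replicates 1 and 3, 0 without T/HS replicate 2 or T/SS replicate 1, and 1 without any other sample. With all samples limma's adjusted p was 1.00 for all. The 6 smallest p were those of Kcnh7, Clcn3, Cacnb2, Kcnj12, Kcnk5 and Kcnj6, from 0.0836 to 0.158. Clcn3 had the largest value, 0.48 ± 0.25, with 522 and 496 units in T/HS lungs and 354 and 516 units in T/SS lungs, and 394 and 424 units in T/HS-LDL lungs and 452 and 504 units in T/SS-LDL lungs. The 95% interval of that difference was -0.12 to 1.08, and its value without T/HS replicate 2 0.51. Kcnh7 had an interaction of -0.27 ± 0.14. Over the 12 separate arrays the interaction called 0 channel genes without and with the replicate block, against a background of 0.0114% of all probe sets in each. The shock difference ran in opposite directions with open and ligated ducts, with the groups apart both times, for 4 channel genes (background 3.28%). The ligation difference did so between shock and sham for 2 (background 3.54%).

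Other ion-handling genes, from lists of calcium pumps and sensors, sodium channels, the sodium pump, cyclic nucleotide channels, other chloride channels, sulfonylurea receptors and metabotropic purine receptors, were read as partners. Of 85 listed, 61 were measured and 29 lay above the array median on all arrays. The highest means were those of Atp1b1, the sodium pump's beta subunit (25152 units), Calr, a calcium-binding chaperone (14428 units), and Scnn1a, the alpha subunit of the epithelial sodium channel that clears alveolar fluid (12062 units). Their shock differences were 0.14 ± 0.12, -0.16 ± 0.07 and -0.02 ± 0.16. On the 8 samples none of the 61 passed limma's adjusted p of 0.05 in any comparison. For shock over both duct states 25 were higher and 36 lower, with 3 at an unadjusted p of 0.05, which is 4.92% against a background of 9.04% of all probe sets.

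Of those 3, P2ry2 and P2ry6 are metabotropic receptors of extracellular nucleotides. P2ry2, which answers UTP and ATP on airway and alveolar epithelium, had 1313 and 1761 units in T/HS lungs and 973 and 1018 units in T/SS lungs, and 1321 and 1542 units in T/HS-LDL lungs and 1066 and 810.2 units in T/SS-LDL lungs. Within each duct state both shock samples lay above both sham samples, which was so for 4.63% of all probe sets. P2ry2 was named for its small p in this comparison, so that separation adds no further support. Its shock difference was 0.62 ± 0.13 (limma adjusted p = 0.309). P2ry2 passed over the 12 arrays kept apart (limma adjusted p = 0.0104) and with the replicate block (limma adjusted p = 0.0241). With a random block for each sample it passed too (limma adjusted p = 0.0463), where 0.664% of all probe sets were called. That fit gave near-identical arrays a shared correlation of 0.96 but still counted 12 arrays in its degrees of freedom. On the 8 samples with 1 left out the adjusted p was 0.0678 to 0.859, and the difference was 0.51 without T/HS replicate 2. P2ry6, the UDP receptor, had 429 and 500.4 units in T/HS lungs and 312 and 335 units in T/SS lungs, and 342 and 474 units in T/HS-LDL lungs and 345 and 284 units in T/SS-LDL lungs, a difference of 0.44 ± 0.13 (limma adjusted p = 0.403). Scn7a, a sodium-sensing relative of the voltage-gated sodium channels, had 1153 and 785 units in T/HS lungs and 1530.4 and 1905 units in T/SS lungs, and 902 and 2247 units in T/HS-LDL lungs and 2693 and 2256 units in T/SS-LDL lungs, a difference of -0.82 ± 0.29 (limma adjusted p = 0.487). Without T/HS replicate 2 the P2ry6 and Scn7a differences were 0.39 and -0.68, and both genes passed over the 12 arrays kept apart, where 3 partners were called in all (background 8.39%).

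After ligation, 3 partners passed an unadjusted p of 0.05, named here after their values were seen. That is 4.92% of the 61, against a background of 8.08% of all probe sets. Slc12a2, the sodium-potassium-chloride cotransporter that loads secretory epithelia with chloride, had 3225 and 2952 units in T/HS-LDL lungs and 3537 and 2843 units in T/SS-LDL lungs, and 2275 and 2582 units in T/HS lungs and 2382 and 2518 units in T/SS lungs. Its difference was 0.36 ± 0.10 (limma adjusted p = 0.603). Abcc8, the sulfonylurea receptor that pairs with Kcnj11, had 516 and 428 units in T/HS-LDL lungs and 509.6 and 652 units in T/SS-LDL lungs, and 678 and 647 units in T/HS lungs and 737 and 646 units in T/SS lungs, a difference of -0.38 ± 0.11 (limma adjusted p = 0.603). Cngb1, a cyclic nucleotide-gated channel subunit, differed by -0.20 ± 0.07 (limma adjusted p = 0.603). Over the 12 arrays kept apart these 3 were among 6 partners called (background 11.1%), and with the replicate block Slc12a2 and Cngb1 were (background 5.93%). The other receptor, Abcc9, averaged 2935 units and differed by -0.10 ± 0.07 (limma adjusted p = 0.658).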

How the data were processed

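Intensity values were deposited as 1 table of 12 arrays, made by the authors with RMA per the submitters' processing notes, which gave no version. Values were on a linear scale, so the log2 of each deposited intensity was used with no further scaling, and no value column was left unused (0). Symbols came from the platform annotation, and all 86 channel genes matched RefSeq by gene ID with the same symbol. Of 8799 probe sets, 59 controls were left out.

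Near-identical arrays (robust SD of log2 differences under 0.1) were averaged. One limma 3.58.1 model (lmFit, eBayes; R 4.3.3) of 4 group means was fitted to 8 samples, with 4 residual and 2.85 prior degrees of freedom. Tests were two-sided, adjusted by Benjamini-Hochberg over 8740 probe sets. The script was tested on simulated data.

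The channel genes, gene lists and tests were chosen with earlier results of these data known. Named by rule were genes above the array median on all arrays, the 6 smallest p per comparison, those past the threshold with 8 samples or 12 arrays, and 6 partners. Other genes were named after their values were seen. Same-numbered arrays deviated together (r over 0.1) in 3 of 18 pairs, r from -0.166 to 0.189. Near-identical arrays share their deviations, so these values are not independent and cannot decide whether a replicate block is needed. The main model has no replicate block, since the labels give no batch or shared day. Alternatives were 12 separate arrays, with and without that block, the sample as a random block, quantile normalization, a dim filter, a trended prior, the mean of a gene's probe sets and each sample left out.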

Additional observations from a re-analysis of the deposited data

Results flagged for a closer look

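For 5 channel genes, 1 effect ran in opposite directions in the 2 arms of the design, with both samples of a group on one side of the other group each time. The shock difference did so between open and ligated ducts for Cacna1b, Kcna5, Kcnh7 and Trpc4, which was so for 3.28% of all probe sets. Cacna1b had 2203 and 2114 units in T/HS lungs and 2313 and 2300.0 units in T/SS lungs, and 2171 and 2049 units in T/HS-LDL lungs and 2013 and 2037 units in T/SS-LDL lungs, and its open-duct shock difference minus the ligated one was -0.15 ± 0.13 on the log2 scale. The second Cacna1b probe set, at 328 units, ran the other way, with an open-duct shock difference of 0.21, a ligated one of -0.10 and a value of 0.31. For Kcna5, with 869 and 848 units in T/HS lungs and 904 and 935 units in T/SS lungs, and 941 and 886 units in T/HS-LDL lungs and 885 and 882 units in T/SS-LDL lungs, it was -0.15 ± 0.13. These were differences of a few percent. Kcnh7 had 266 and 247 units in T/HS lungs and 298 and 282 units in T/SS lungs, and 250.3 and 250.4 units in T/HS-LDL lungs and 226 and 242 units in T/SS-LDL lungs, with a value of -0.27 ± 0.14. Trpc4 had 139.6 and 119 units in T/HS lungs and 153 and 139.9 units in T/SS lungs, and 138 and 139.9 units in T/HS-LDL lungs and 137 and 131 units in T/SS-LDL lungs, with a value of -0.24 ± 0.16, and its probe set was dim.

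The ligation difference ran in opposite directions after shock and after sham for Kcna5 and Kcnj6, as it did for 3.54% of all probe sets. The same interaction values apply, -0.15 ± 0.13 for Kcna5 and -0.19 ± 0.12 for Kcnj6, which had 139.6 and 144 units in T/HS-LDL lungs and 146 and 143 units in T/SS-LDL lungs, and 135 and 132 units in T/HS lungs and 155 and 158 units in T/SS lungs. In limma's test of the interaction the unadjusted p was 0.262 for Cacna1b, 0.286 for Kcna5, 0.0836 for Kcnh7, 0.176 for Trpc4 and 0.158 for Kcnj6, with an adjusted p of 1.00 for each.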

How the results depend on the processing

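The count of channel genes at an adjusted p of 0.05 was 0 in each comparison with quantile normalization, a filter on dim probe sets (4790 kept), a prior that follows intensity, the mean of all probe sets of a gene and the sample as a random block over 12 arrays. With 12 separate arrays it was 2 for T/HS against T/SS, 1 for each of the other comparisons of 2 groups, 3 for shock over both duct states, 6 for ligation over both shock states and 0 for the interaction. Near-identical arrays then count as independent, which narrows the spread. A replicate block could be added to the 12 arrays only. With it the counts were 1 for T/HS against T/SS, 2 for shock and 3 for ligation, and 0 for the rest; the labels do not say that the numbers mark a shared day. Without T/HS replicates 1 and 3, T/HS replicate 2 alone stood for T/HS lungs, and the Kcnq1 difference for T/HS against T/SS was -0.82. The count above the array median was 32 to 33 over the alternatives that left out a sample.

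Of 59 differences of named genes, 57 kept their direction in every alternative that kept all samples, and 57 when each sample was left out. Those that turned were Kcnk3, T/HS against T/SS, at 0.014, and Itpr1, ligation, at -0.013, both with the mean of all probe sets; Kcnq1, T/HS against T/SS, at 0.13 without T/HS replicate 2 (-0.82 to 0.13 over the samples left out); and Kcnj15, ligation, at -0.015 without T/SS-LDL replicates 1 and 3 (-0.015 to 0.45). For the first pair the other probe sets of the gene pointed the other way. Quantile normalization moved the median of all probe sets by at most 0.013 on the log2 scale. Median differences of the channel genes kept their sign in 4 of 7 comparisons in alternatives that kept all samples. With each sample left out, the median kept its sign for T/SS-LDL against T/SS (-0.138 to -0.037) and for ligation (-0.105 to -0.036). It turned for T/HS against T/SS (-0.075 to 0.058), T/HS against T/HS-LDL (-0.018 to 0.113), shock (-0.035 to 0.031), the interaction (-0.077 to 0.030) and the ligated comparison of shock with sham (-0.047 to 0.061). Counts at an unadjusted p of 0.05 ranged from 1 to 6, 1 to 6, 1 to 5, 0 to 4 and 0 to 7 in these 5, from 1 to 5 for T/SS-LDL against T/SS and from 0 to 13 for ligation. P2ry2, shock, passed with 12 separate arrays and with a random block for the sample (limma adjusted p = 0.0463), but not on the 8 samples (limma adjusted p = 0.309).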
